A study of Homo sapiens with 21 samples.

Results

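The lysosomal gene module described here holds 53 genes, a list of symbols grouped into 6 classes: 10 proteases, 15 glycosidases and sulfatases, 7 lipid enzymes and lipid-binding cofactors, 13 subunits or accessory proteins of the vacuolar proton pump (V-ATPase), 6 membrane proteins and 2 regulators. Each gene was read by one probe set, the one with the highest mean log2 intensity over all arrays, and all 53 were among the 12165 genes tested. Of these, 52 were above the dimmest 40% of genes. The exception was SGSH, with a mean log2 intensity of 3.34.

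Lysosomes are acidic organelles in which hydrolases break down proteins, sugar chains and lipids delivered by endocytosis, phagocytosis and autophagy. The V-ATPase acidifies them: its cytosolic V1 sector hydrolyses ATP and turns the membrane V0 sector, which carries protons into the lumen. Many lysosomal genes carry in their promoters an E-box-centred motif bound by TFEB and its relatives TFE3, MITF and TFEC, and monocytes and macrophages are rich in lysosomes.

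RNA was profiled in 3 human leukaemia lines 5 days after infection with short hairpins and selection in puromycin. MOLM-14 is a monocytic acute myeloid leukaemia line with an internal tandem duplication of FLT3, U937 is a monocytic line that came from a histiocytic lymphoma, and HL-60 cells are promyelocytic. In each line 3 cultures received a hairpin against luciferase (shLuc, the control), 2 received shSYK_1 and 2 received shSYK_2, both directed against SYK, a cytoplasmic tyrosine kinase. The 21 arrays thus formed 9 groups, and every comparison is within 3 cell lines, so its error is that between transductions of these lines and not between donors. All groups, controls included, carried a hairpin and were selected with puromycin at 1 µg/ml from 48 h after infection. The 21-base targets of the SYK hairpins, as the labels give them, are shown because every comparison rests on them.
shSYK_1: gcagcagaacagacatgtcaa
shSYK_2: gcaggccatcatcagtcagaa

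SYK checked the labels. Its log2 intensity in MOLM-14 was 8.49, 8.42 and 8.44 with shLuc, 6.16 and 6.16 with shSYK_1 and 5.62 and 5.35 with shSYK_2. In U937 it was 8.66, 8.70 and 8.70 with shLuc, 7.02 and 6.97 with shSYK_1 and 6.57 and 6.55 with shSYK_2. In HL-60 it was 8.91, 9.05 and 9.0 with shLuc, 7.04 and 7.0 with shSYK_1 and 6.66 and 6.90 with shSYK_2. Every SYK hairpin array was below every shLuc array of its line, and the RNA remaining in the 6 hairpin groups ranged from 12.9% (MOLM-14, shSYK_2) to 31.1% (U937, shSYK_1). For 1 array, HL-60 shSYK_2 replicate 1, the title and treatment label say shSYK_2 and the source name says shSYK_1. It is used here as shSYK_2, and its upper-quartile intensity, 122, was below the 134 to 140 of the other arrays. Over the 50 genes that differed between hairpins by more than 1 log2 unit in the same direction in both MOLM-14 and U937, this array was nearer to HL-60 shSYK_2 replicate 2 for 44 and nearer to the HL-60 shSYK_1 mean for 6. The counts of members in HL-60 with shSYK_2 and in all 3 lines, and of V-ATPase genes with shSYK_2, are also given without it or with it moved to shSYK_1, and those of the marker and related gene lists are given only with it as shSYK_2.

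Averaged over the 3 lines and both hairpins, 42 of the 53 lysosomal genes rose and 1 fell, where 17.1% of all genes rose and 17% fell. The members, like the other gene lists below, were chosen with earlier results of these data known. The shares of all genes include dim genes, of which the module holds few. The counts therefore describe this list and do not test it. A gene rose or fell where its limma p-value, adjusted by Benjamini-Hochberg over all 12165 genes, was below 0.05, and a change is a difference of mean log2 intensities. The median change of the members was 0.36, against 0.0054 for all genes tested. The gene that fell was ATP6V0B. Of the 43 called genes, 40 were called under every alternative processing and with any 1 array left out. CTSK missed the threshold without MOLM-14 shLuc replicate 2, at 0.18 (limma adjusted p = 0.0671), and ARSA without the same array, at 0.26 (limma adjusted p = 0.0737); leaving out any of 6 single arrays ended the CTSK call and any of 9 the ARSA call. SGSH missed it, at 0.20 (limma adjusted p = 0.123), with the array of conflicting labels moved to shSYK_1.

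shSYK_1 gave the larger count in every line. It raised 33 members in MOLM-14 (13% of all genes rose), 30 in U937 (8.53%) and 40 in HL-60 (12.5%), and 1 member fell in each line (12.5%, 8.37% and 11.8% of all genes). These were ATP6V0B in MOLM-14 and HL-60, and IDUA in U937. With shSYK_2, 17 members rose in MOLM-14 (8.47% of all genes), 21 in U937 (8.32%) and 31 in HL-60 (10%). The members that fell with shSYK_2 were ARSB and ASAH1 in MOLM-14 (8.12% of all genes), none in U937 (7.92%), and ARSB, ASAH1, ATP6V0B, ATP6V1C1 and LAMP2 in HL-60 (11.4%). The smallest of these counts rested on single arrays: in MOLM-14 with shSYK_2, 5 members rose without replicate 2 of that group and 11 without replicate 1, and 0 and 1 fell. In HL-60 with shSYK_2, 25 rose and 1 fell without replicate 1, the array of conflicting labels, and 18 rose and 0 fell with it moved to shSYK_1.

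The median member difference was above 0 on every SYK hairpin array, and it was smallest in MOLM-14 with shSYK_2. The median over the 53 members of the difference from the shLuc mean of the same line was 0.46 and 0.40 on the shSYK_1 arrays of MOLM-14, 0.42 and 0.35 in U937 and 0.41 and 0.42 in HL-60. On the shSYK_2 arrays it was 0.13 and 0.088 in MOLM-14, 0.23 and 0.25 in U937 and 0.26 and 0.36 in HL-60, smaller than with shSYK_1 in each line. The single shLuc arrays lay between -0.024 and 0.028. Over all genes the same median stayed between -0.021 and 0.023 on all 21 arrays. In MOLM-14 with shSYK_2, 33 and 34 of the 53 members lay above the shLuc mean. That was fewer than the 39 on MOLM-14 shLuc replicate 3, and the other MOLM-14 shLuc arrays had 25 and 17. On the remaining SYK hairpin arrays 42 to 49 members lay above it.

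With shSYK_1, 23 members rose in all 3 lines (3.53% of all genes did), among them 5 cathepsins (CTSA, CTSB, CTSD, CTSS, CTSZ), 7 V-ATPase genes, the sialidase NEU1 and the cholesterol exporter NPC1. With shSYK_2, 10 did (1.41% of all genes). These were TPP1, NEU1, GLB1, HEXA, FUCA1, MAN2B1, MANBA, PSAP, LIPA and NPC1, with no V-ATPase gene and no cathepsin. The shSYK_2 list rests on the calls in MOLM-14, which depended on single arrays as given above. Of those 19 calls, 4 held under all alternatives. Without the array of conflicting labels, 11 rose with shSYK_2, these 10 and the cathepsin CTSH, and 26 with shSYK_1. With it moved to shSYK_1, 7 rose with shSYK_2 (TPP1, HEXA, FUCA1, MANBA, PSAP, LIPA and NPC1) and 16 with shSYK_1. No member fell in all 3 lines with either hairpin (3.47% of all genes did with shSYK_1 and 2.03% with shSYK_2). Both hairpins of a line were compared with the same shLuc arrays, so the lists of the hairpins are given side by side and their overlap is not a result.

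**Figure D1:**
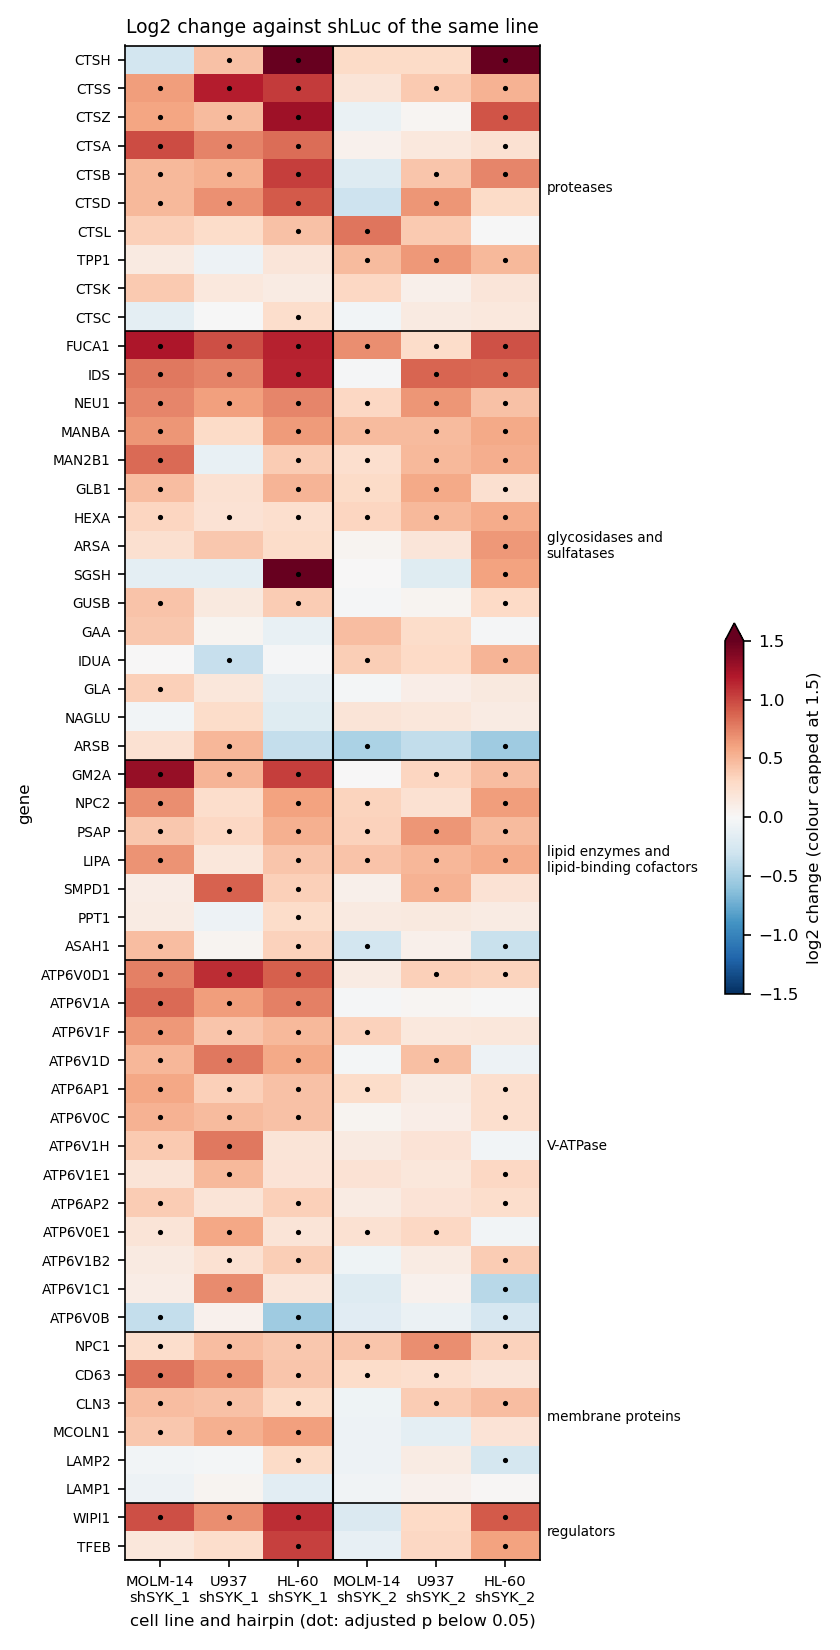
Log2 change of the 53 lysosomal genes (rows, by class and by the average of both hairpins) against shLuc of the same line, for each line and hairpin (columns); red is higher and blue lower, and a dot marks a limma adjusted p below 0.05. Most rows are red in the 3 shSYK_1 columns, V-ATPase rows are paler in the shSYK_2 columns, and ATP6V0B and ARSB hold blue cells with dots.

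The summed intensities of monocyte and of neutrophil maturation markers were above the controls in every SYK hairpin group but MOLM-14 with shSYK_2. There both sums were below the controls, while the median member difference was above 0. Of 16 tested markers of monocyte and macrophage maturation, 11 rose with shSYK_1 and 9 with shSYK_2, averaged over lines, and 0 and 1 fell (with shSYK_1 18.2% of all genes rose and 17.4% fell, and with shSYK_2 15.6% and 14.7%). The summed intensity of these markers in MOLM-14 was 1128 to 1140.0 with shLuc, 2015 to 2166 with shSYK_1 and 992 to 1008 with shSYK_2. In U937 it was 585 to 591, 1218 to 1227 and 979.8 to 994, and in HL-60 1913 to 2149, 3718 to 3789.7 and 2537 to 2652. The sum was therefore above every shLuc array in all groups but MOLM-14 with shSYK_2, where it was below them. Such a sum weighs the brightest markers most, and 5 to 9 of the 16 lay above the median gene in each group.
Of 14 tested neutrophil maturation markers, 10 rose with shSYK_1 and 5 with shSYK_2, and 0 and 2 fell. Their summed intensity in MOLM-14 was 1295 to 1409 with shLuc, 4427 to 4887 with shSYK_1 and 476 to 601 with shSYK_2. It was 220.3 to 227, 452 to 464 and 274 to 282 in U937, and 6819 to 7065, 12052 to 12876 and 7866 to 8250.1 in HL-60. Of the 14, 2 lay above the median gene in every MOLM-14 group, 1 to 5 in the U937 groups and 6 in every HL-60 group. The neutrophil sums of MOLM-14 and U937 thus rest on few markers above that level. The part of maturation in the lysosomal change was not tested, and in bulk RNA more cells of a kind and more RNA per cell cannot be told apart. Of 5 tested markers of myeloid identity (PTPRC, SPI1, MPO, CEBPA and FLT3), 4 lay above the median gene in MOLM-14 and HL-60 controls and 2 in U937 controls. Averaged over lines, 3 fell with shSYK_1 (MPO, CEBPA and FLT3) and 3 with shSYK_2 (SPI1, MPO and CEBPA), and 1 (PTPRC) and 0 rose. Their summed intensity was 3448 to 3646 with shLuc, 3249.5 to 3494 with shSYK_1 and 3205 to 3226 with shSYK_2 in MOLM-14. It was 2190.1 to 2284, 1929.6 to 1970.0 and 1908 to 2057 in U937, and 8853 to 9315, 6300.3 to 6553 and 7218 to 7330.2 in HL-60. The part of this in the lysosomal change was not tested.

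Markers of other cell types were read in the same way. None of 6 tested megakaryocyte or 5 tested B-cell markers lay above the median gene in any group. Of 8 tested T and NK cell markers 1 did in every group, and of 7 erythroid markers likewise 1. Of 9 epithelial and stromal markers, 1 did in the MOLM-14 groups and 0 in U937 and HL-60. The summed intensity of the T and NK list was 248 to 271 in MOLM-14, 1284 to 1345 in U937 and 205 to 231 in HL-60 controls. With shSYK_1 it was 245 to 249.9, 1148 to 1149.8 and 159.9 to 180.3, and with shSYK_2 230.3 to 251, 1287 to 1445 and 215 to 216. NKG7, a cytotoxic granule protein, had the highest mean of that list, a log2 intensity of 8.33, and changed by -0.28 (limma adjusted p = 1.44e-04) with shSYK_1 and -0.047 (limma adjusted p = 0.508) with shSYK_2.

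Among the 10 proteases, 9 rose and none fell for both hairpins averaged over lines, with a median change of 0.48, and CTSC, which activates the serine proteases of granules, was not called at 0.060. With shSYK_1 alone 8 of 10 rose (median change 0.69), and with shSYK_2 alone 8 (median change 0.30); background shares are those given above with the markers. The 3 with the largest average change were CTSH, CTSS and CTSZ.

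CTSS is an elastin-degrading cysteine protease that also trims the invariant chain of MHC class II. In MOLM-14, CTSS had log2 intensities of 8.83, 8.83 and 8.86 with shLuc, 9.45 and 9.48 with shSYK_1 and 9.06 and 9.01 with shSYK_2. U937 arrays gave CTSS log2 intensities of 7.88, 7.86 and 7.84, then 9.14 and 8.94, then 8.13 and 8.37, in the same order of hairpins. In HL-60, CTSS read 8.22, 8.28 and 8.24 with shLuc, 9.32 and 9.28 with shSYK_1 and 8.69 and 8.85 with shSYK_2, again as log2 intensity. For CTSS, the shSYK_1 arrays lay above every shLuc array in all 3 lines, and the shSYK_2 arrays lay above every shLuc array in all 3 lines. CTSS rose by 0.95 ± 0.0447 (SE, limma adjusted p = 6.10e-11) with shSYK_1 and 0.37 ± 0.0447 (SE, limma adjusted p = 8.18e-06) with shSYK_2, as averages of the 3 lines. In MOLM-14 its shSYK_2 change, 0.19, was not called, and the U937 call with shSYK_2 was lost without replicate 2 of that group.

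CTSH, an aminopeptidase among the cathepsins, changed most in HL-60. In MOLM-14, CTSH had log2 intensities of 5.23, 5.19 and 5.29 with shLuc, 4.98 and 4.94 with shSYK_1 and 5.49 and 5.56 with shSYK_2. U937 arrays gave CTSH log2 intensities of 9.40, 9.36 and 9.40, then 9.80 and 9.86, then 9.65 and 9.70, in the same order of hairpins. In HL-60, CTSH read 4.69, 5.03 and 4.64 with shLuc, 6.77 and 6.82 with shSYK_1 and 6.70 and 6.18 with shSYK_2, again as log2 intensity. For CTSH, the shSYK_1 arrays lay above every shLuc array in U937 and HL-60 and below every shLuc array in MOLM-14, and the shSYK_2 arrays lay above every shLuc array in all 3 lines. CTSH changed by -0.28, 0.44 and 2.01 with shSYK_1 and 0.29, 0.29 and 1.65 with shSYK_2, in the order MOLM-14, U937 and HL-60, and the calls were those in HL-60 with both hairpins and in U937 with shSYK_1. Its call in U937 was lost without either shSYK_1 array of that line or without its shLuc replicate 2. The averages over lines, 0.72 ± 0.0701 (SE, limma adjusted p = 3.81e-07) with shSYK_1 and 0.74 ± 0.0701 (SE, limma adjusted p = 5.80e-07) with shSYK_2, combined these unequal lines.

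CTSZ is a carboxypeptidase. In MOLM-14, CTSZ had log2 intensities of 8.73, 8.67 and 8.59 with shLuc, 9.54 and 8.98 with shSYK_1 and 8.43 and 8.70 with shSYK_2. U937 arrays gave CTSZ log2 intensities of 10.24, 10.13 and 10.27, then 10.81 and 10.56, then 10.03 and 10.45, in the same order of hairpins. In HL-60, CTSZ read 8.45, 8.39 and 8.32 with shLuc, 9.61 and 9.72 with shSYK_1 and 9.38 and 9.29 with shSYK_2, again as log2 intensity. For CTSZ, the shSYK_1 arrays lay above every shLuc array in all 3 lines, and the shSYK_2 arrays lay above every shLuc array in HL-60 and within or across the shLuc range in MOLM-14 and U937. CTSZ rose by 0.78 ± 0.0830 (SE, limma adjusted p = 1.07e-06) with shSYK_1 and 0.29 ± 0.0830 (SE, limma adjusted p = 0.0129) with shSYK_2. The average with shSYK_2 was not called without MOLM-14 shSYK_2 replicate 2 or U937 shSYK_2 replicate 2, or with the array of conflicting labels moved. The shSYK_1 calls in MOLM-14 and U937 were lost with the mean of its probe sets, without MOLM-14 shSYK_1 replicate 1 in the first line, and without U937 shSYK_1 replicate 1 or any shLuc array in the second.

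The other proteases split by hairpin. CTSA, a carboxypeptidase that protects NEU1 and GLB1, changed, in the order MOLM-14, U937, HL-60, by 0.98, 0.75 and 0.84 with shSYK_1 and 0.059, 0.16 and 0.23 with shSYK_2, and was called in all 3 lines with shSYK_1 and in HL-60 with shSYK_2. The endopeptidase CTSB changed by 0.49, 0.54 and 1.04 with shSYK_1 and -0.20, 0.42 and 0.73 with shSYK_2, and the aspartic protease CTSD by 0.48, 0.69 and 0.92 with shSYK_1 and -0.31, 0.66 and 0.29 with shSYK_2. The shSYK_2 average of CTSA was 0.15 (limma adjusted p = 0.227) with the array of conflicting labels moved, and that of CTSD was lost without any of 5 single arrays, as in 0.14 (limma adjusted p = 0.127) without MOLM-14 shSYK_2 replicate 1. For CTSB and CTSD every shSYK_1 change was called, that of CTSD in MOLM-14 not without replicate 2 of its group, and the shSYK_2 change in MOLM-14 was below 0 and not called. TPP1, a tripeptidyl peptidase, went the other way: its changes were 0.14, -0.076 and 0.19 with shSYK_1 and 0.47, 0.65 and 0.48 with shSYK_2, called in each line with shSYK_2 and in none with shSYK_1. CTSL rose with shSYK_2 in MOLM-14, by 0.80, and with shSYK_1 in HL-60, by 0.44. CTSK, the collagen-degrading protease of osteoclasts, was called in no line with either hairpin, and the 6 changes lay between 0.079 and 0.39.

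Of the 15 glycosidases and sulfatases, which remove single sugars or sulfate groups from glycoproteins, glycolipids and glycosaminoglycans, 10 rose and none fell for both hairpins averaged over lines (median change 0.30). The 11 glycosidases had 8 members that rose with shSYK_1 and 7 with shSYK_2, with medians of 0.32 and 0.39. Of the 4 sulfatases, 2 rose with shSYK_1, and 1 rose and 1 fell with shSYK_2. Over all genes, 17.1% rose and 17% fell for both hairpins, 18.2% and 17.4% with shSYK_1, and 15.6% and 14.7% with shSYK_2. FUCA1, IDS and NEU1 had the largest average changes.

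FUCA1 cleaves fucose from glycoproteins and had the largest change of all 53 members, 0.88 for both hairpins averaged over lines. In MOLM-14, FUCA1 had log2 intensities of 8.0, 8.07 and 8.12 with shLuc, 9.18 and 9.36 with shSYK_1 and 8.77 and 8.74 with shSYK_2. U937 arrays gave FUCA1 log2 intensities of 10.12, 10.18 and 10.11, then 11.08 and 11.11, then 10.45 and 10.38, in the same order of hairpins. In HL-60, FUCA1 read 8.63, 8.53 and 8.54 with shLuc, 9.69 and 9.75 with shSYK_1 and 9.52 and 9.53 with shSYK_2, again as log2 intensity. For FUCA1, the shSYK_1 arrays lay above every shLuc array in all 3 lines, and the shSYK_2 arrays lay above every shLuc array in all 3 lines. FUCA1 rose by 1.11 ± 0.0383 (SE, limma adjusted p = 2.20e-12) with shSYK_1 and 0.64 ± 0.0383 (SE, limma adjusted p = 3.49e-09) with shSYK_2. It was called in all 6 hairpin groups, and its call in U937 with shSYK_2 was lost without replicate 1 of that group.

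IDS removes sulfate from dermatan and heparan sulfate. In MOLM-14, IDS had log2 intensities of 6.02, 5.58 and 5.96 with shLuc, 6.66 and 6.64 with shSYK_1 and 5.84 and 5.82 with shSYK_2. U937 arrays gave IDS log2 intensities of 7.27, 7.42 and 7.25, then 8.12 and 7.99, then 8.14 and 8.23, in the same order of hairpins. In HL-60, IDS read 5.91, 5.97 and 6.04 with shLuc, 7.02 and 7.21 with shSYK_1 and 6.84 and 6.83 with shSYK_2, again as log2 intensity. For IDS, the shSYK_1 arrays lay above every shLuc array in all 3 lines, and the shSYK_2 arrays lay above every shLuc array in U937 and HL-60 and within or across the shLuc range in MOLM-14. IDS rose by 0.89 ± 0.0612 (SE, limma adjusted p = 5.95e-09) with shSYK_1 and 0.57 ± 0.0612 (SE, limma adjusted p = 2.34e-06) with shSYK_2. MOLM-14 with shSYK_2 was the one group not called, at -0.023.

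NEU1 is the lysosomal sialidase. In MOLM-14, NEU1 had log2 intensities of 7.04, 6.92 and 6.97 with shLuc, 7.70 and 7.73 with shSYK_1 and 7.30 and 7.28 with shSYK_2. U937 arrays gave NEU1 log2 intensities of 7.57, 7.49 and 7.39, then 8.18 and 8.02, then 8.19 and 8.09, in the same order of hairpins. In HL-60, NEU1 read 7.07, 7.14 and 6.97 with shLuc, 7.69 and 7.88 with shSYK_1 and 7.47 and 7.53 with shSYK_2, again as log2 intensity. For NEU1, the shSYK_1 arrays lay above every shLuc array in all 3 lines, and the shSYK_2 arrays lay above every shLuc array in all 3 lines. NEU1 rose by 0.69 ± 0.0456 (SE, limma adjusted p = 3.68e-09) with shSYK_1 and 0.47 ± 0.0456 (SE, limma adjusted p = 7.83e-07) with shSYK_2 and was called in all 6 hairpin groups. The MOLM-14 call with shSYK_2 was lost without either array of that group.

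MANBA, HEXA, GLB1 and MAN2B1, which cleave mannose, hexosamine, galactose and mannose in turn, rose in every line with shSYK_2. Their shSYK_2 changes in MOLM-14, U937 and HL-60 were 0.47, 0.48 and 0.57 for MANBA. For HEXA they were 0.33, 0.48 and 0.55. For GLB1 they were 0.29, 0.57 and 0.23. With shSYK_1, HEXA rose in all 3 lines and the other 3 in MOLM-14 and HL-60, where MAN2B1 changed by 0.85 and 0.38, against -0.11 in U937. GUSB, the glucuronidase, rose in MOLM-14 and HL-60 with shSYK_1 and in HL-60 with shSYK_2, by 0.43, 0.38 and 0.30. IDUA, the iduronidase, fell by 0.35 in U937 with shSYK_1 and rose by 0.37 in MOLM-14 and 0.51 in HL-60 with shSYK_2. The dim SGSH rose in HL-60 only, by 1.5 with shSYK_1 and 0.61 with shSYK_2. The sulfatase ARSB rose by 0.50 in U937 with shSYK_1, and with shSYK_2 fell by 0.47 in MOLM-14 and 0.53 in HL-60. The MOLM-14 call was lost without any 1 of the MOLM-14 shLuc or shSYK_2 arrays, with changes of -0.51 to -0.42 (limma adjusted p = 0.0501 to 0.181), and the HL-60 call was lost without the array of conflicting labels, where ARSB changed by -0.30 (limma adjusted p = 0.288). Another 3 sugar hydrolases were called in at most 1 of the 6 groups: GLA (called in MOLM-14 with shSYK_1, 0.36), GAA and NAGLU.

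Of the 7 lipid enzymes and cofactors, 6 rose for both hairpins averaged over lines, where 17.1% of all genes rose (median change 0.46). ASAH1, the acid ceramidase, was not called with its brightest probe set, at 0.054, and its probe sets disagreed. For both hairpins averaged over lines, its set with a mean log2 intensity of 8.90 rose by 0.44 (limma adjusted p = 4.08e-07, adjusted over probe sets). Its set with a mean of 9.35 changed by -0.010 and was not called. The 3 with the largest change were not enzymes: GM2A and PSAP present lipids to hydrolases, and NPC2 hands cholesterol to NPC1.

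GM2A lifts ganglioside GM2 from the membrane for hexosaminidase. In MOLM-14, GM2A had log2 intensities of 6.61, 6.68 and 6.73 with shLuc, 8.04 and 7.93 with shSYK_1 and 6.62 and 6.74 with shSYK_2. U937 arrays gave GM2A log2 intensities of 9.55, 9.45 and 9.53, then 10.04 and 10.01, then 9.83 and 9.85, in the same order of hairpins. In HL-60, GM2A read 8.30, 8.28 and 8.25 with shLuc, 9.29 and 9.34 with shSYK_1 and 8.80 and 8.68 with shSYK_2, again as log2 intensity. For GM2A, the shSYK_1 arrays lay above every shLuc array in all 3 lines, and the shSYK_2 arrays lay above every shLuc array in U937 and HL-60 and within or across the shLuc range in MOLM-14. GM2A rose by 0.96 ± 0.0382 (SE, limma adjusted p = 9.46e-12) with shSYK_1 and 0.27 ± 0.0382 (SE, limma adjusted p = 4.84e-05) with shSYK_2. In MOLM-14 its change was 1.31 with shSYK_1 and 0.010 with shSYK_2. The shSYK_2 calls in U937 and HL-60 were lost with the mean of its probe sets.

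PSAP is cut into the saposins, cofactors of sphingolipid breakdown. In MOLM-14, PSAP had log2 intensities of 9.59, 9.64 and 9.58 with shLuc, 9.99 and 10.02 with shSYK_1 and 9.90 and 10.01 with shSYK_2. U937 arrays gave PSAP log2 intensities of 9.88, 9.92 and 9.86, then 10.16 and 10.23, then 10.56 and 10.53, in the same order of hairpins. In HL-60, PSAP read 10.14, 10.22 and 10.17 with shLuc, 10.70 and 10.73 with shSYK_1 and 10.69 and 10.62 with shSYK_2, again as log2 intensity. For PSAP, the shSYK_1 arrays lay above every shLuc array in all 3 lines, and the shSYK_2 arrays lay above every shLuc array in all 3 lines. PSAP rose by 0.42 ± 0.0338 (SE, limma adjusted p = 4.65e-08) with shSYK_1 and 0.50 ± 0.0338 (SE, limma adjusted p = 1.64e-08) with shSYK_2 and was called in all 6 groups. In U937 its shSYK_2 arrays were above its shSYK_1 arrays.

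NPC2 is the soluble cholesterol carrier. In MOLM-14, NPC2 had log2 intensities of 8.12, 7.95 and 8.16 with shLuc, 8.70 and 8.84 with shSYK_1 and 8.28 and 8.54 with shSYK_2. U937 arrays gave NPC2 log2 intensities of 11.37, 11.44 and 11.40, then 11.74 and 11.59, then 11.63 and 11.64, in the same order of hairpins. In HL-60, NPC2 read 9.35, 9.41 and 9.33 with shLuc, 9.95 and 10.00 with shSYK_1 and 9.88 and 10.11 with shSYK_2, again as log2 intensity. For NPC2, the shSYK_1 arrays lay above every shLuc array in all 3 lines, and the shSYK_2 arrays lay above every shLuc array in all 3 lines. NPC2 rose by 0.52 ± 0.0529 (SE, limma adjusted p = 6.34e-07) with shSYK_1 and 0.40 ± 0.0529 (SE, limma adjusted p = 2.23e-05) with shSYK_2. In U937 it was called with neither hairpin, at 0.27 and 0.23. In MOLM-14 the call with shSYK_2 was lost without replicate 2 of that group or shLuc replicate 2.

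LIPA, which splits cholesteryl esters, rose in all 3 lines with shSYK_2, and its 6 changes were 0.67, 0.17 and 0.42 with shSYK_1 and 0.43, 0.50 and 0.56 with shSYK_2. SMPD1, the acid sphingomyelinase, rose most in U937, by 0.88 with shSYK_1 and 0.52 with shSYK_2. ASAH1 rose by 0.28 ± 0.0394 (SE, limma adjusted p = 2.12e-05) with shSYK_1 and fell by 0.18 ± 0.0394 (SE, limma adjusted p = 0.00246) with shSYK_2, as averages over lines. Its probe sets disagreed with shSYK_2: a dimmer set changed by 0.23, and the average with shSYK_2 was -0.025 (limma adjusted p = 0.620) with the mean of all its probe sets and -0.17 (limma adjusted p = 0.240) with the array of conflicting labels moved. PPT1, the palmitoyl-protein thioesterase, rose by 0.12 for both hairpins, and its shSYK_2 average of 0.13 was not called without MOLM-14 shSYK_2 replicate 1, U937 shSYK_2 replicate 1 or HL-60 shSYK_2 replicate 2.

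More V-ATPase genes rose with shSYK_1 than with shSYK_2. In the direct comparison of the hairpins, 9 of 13 were lower with shSYK_2 than with shSYK_1 (18.4% of all genes were). With shSYK_1, 12 of 13 members rose and 1 fell, averaged over lines (median change 0.46). With shSYK_2, 8 rose and 2 fell (median change 0.15). Of all genes, 18.2% rose and 17.4% fell with shSYK_1, and 15.6% and 14.7% with shSYK_2. All 7 V1 subunits rose with shSYK_1 (median 0.46) and 3 of 7 rose with shSYK_2 (median 0.12). Of the 4 V0 subunits, 3 rose with either hairpin, and their median change was likewise smaller with shSYK_2, 0.15 against 0.40 with shSYK_1. Between hairpins, 5 of 7 V1 and 3 of 4 V0 subunits were lower with shSYK_2. In single lines 9, 11 and 9 of the 13 rose with shSYK_1 in MOLM-14, U937 and HL-60, against 3, 3 and 6 with shSYK_2. The HL-60 count with shSYK_2 was 2 without the array of conflicting labels and 1 with it moved to shSYK_1. Averaged over lines, 10 V-ATPase genes rose and 1 fell with shSYK_2 without it, and 7 rose and 1 fell with it moved.

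ATP6V1A is the catalytic subunit of the V1 sector. In MOLM-14, ATP6V1A had log2 intensities of 9.36, 9.27 and 9.49 with shLuc, 10.21 and 10.24 with shSYK_1 and 9.30 and 9.42 with shSYK_2. U937 arrays gave ATP6V1A log2 intensities of 9.91, 9.82 and 9.91, then 10.41 and 10.61, then 9.85 and 9.98, in the same order of hairpins. In HL-60, ATP6V1A read 9.58, 9.59 and 9.62 with shLuc, 10.37 and 10.33 with shSYK_1 and 9.48 and 9.71 with shSYK_2, again as log2 intensity. For ATP6V1A, the shSYK_1 arrays lay above every shLuc array in all 3 lines, and the shSYK_2 arrays lay within or across the shLuc range in all 3 lines. ATP6V1A rose by 0.74 ± 0.0491 (SE, limma adjusted p = 3.85e-09) with shSYK_1, as an average of the 3 lines. With shSYK_2 the average was 0.0044, with a 95% confidence interval from -0.10 to 0.11. The difference between hairpins, -0.74 ± 0.0538 (limma adjusted p = 1.76e-08), was the largest of all members.

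ATP6V0D1 couples the rotor of V1 to the V0 ring. In MOLM-14, ATP6V0D1 had log2 intensities of 8.5, 8.48 and 8.5 with shLuc, 9.26 and 9.23 with shSYK_1 and 8.63 and 8.61 with shSYK_2. U937 arrays gave ATP6V0D1 log2 intensities of 7.68, 7.83 and 7.75, then 9.01 and 8.73, then 8.12 and 8.09, in the same order of hairpins. In HL-60, ATP6V0D1 read 8.92, 8.94 and 8.90 with shLuc, 9.87 and 9.77 with shSYK_1 and 9.15 and 9.36 with shSYK_2, again as log2 intensity. For ATP6V0D1, the shSYK_1 arrays lay above every shLuc array in all 3 lines, and the shSYK_2 arrays lay above every shLuc array in all 3 lines. ATP6V0D1 rose by 0.92 ± 0.0470 (SE, limma adjusted p = 1.56e-10) with shSYK_1 and 0.27 ± 0.0470 (SE, limma adjusted p = 2.92e-04) with shSYK_2. The U937 call with shSYK_2 was lost without replicate 1 of that group, and the HL-60 call without HL-60 shSYK_2 replicate 2 or with the array of conflicting labels moved.

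ATP6V1F sits in the central stalk of V1. In MOLM-14, ATP6V1F had log2 intensities of 8.89, 8.92 and 8.90 with shLuc, 9.36 and 9.75 with shSYK_1 and 9.26 and 9.23 with shSYK_2. U937 arrays gave ATP6V1F log2 intensities of 10.06, 9.98 and 10.03, then 10.41 and 10.47, then 10.23 and 10.12, in the same order of hairpins. In HL-60, ATP6V1F read 9.25, 9.18 and 9.19 with shLuc, 9.65 and 9.73 with shSYK_1 and 9.49 and 9.26 with shSYK_2, again as log2 intensity. For ATP6V1F, the shSYK_1 arrays lay above every shLuc array in all 3 lines, and the shSYK_2 arrays lay above every shLuc array in all 3 lines. ATP6V1F rose by 0.52 ± 0.0538 (SE, limma adjusted p = 8.70e-07) with shSYK_1 and 0.22 ± 0.0538 (SE, limma adjusted p = 0.00455) with shSYK_2. The shSYK_2 call in MOLM-14 was lost without either shSYK_2 array of that line, and that of shSYK_1 in U937 without replicate 2 of its group.

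ATP6V0B, a proteolipid of the proton-carrying ring, fell. In MOLM-14, ATP6V0B had log2 intensities of 9.49, 9.31 and 9.44 with shLuc, 9.04 and 9.07 with shSYK_1 and 9.23 and 9.26 with shSYK_2. U937 arrays gave ATP6V0B log2 intensities of 9.73, 9.73 and 9.67, then 9.86 and 9.70, then 9.58 and 9.66, in the same order of hairpins. In HL-60, ATP6V0B read 10.53, 10.58 and 10.50 with shLuc, 10.01 and 10.00 with shSYK_1 and 10.27 and 10.30 with shSYK_2, again as log2 intensity. For ATP6V0B, the shSYK_1 arrays lay below every shLuc array in MOLM-14 and HL-60 and within or across the shLuc range in U937, and the shSYK_2 arrays lay below every shLuc array in all 3 lines. ATP6V0B fell by 0.27 ± 0.0386 (SE, limma adjusted p = 2.50e-05) with shSYK_1 and by 0.17 ± 0.0386 (limma adjusted p = 0.00298) with shSYK_2, as averages of the 3 lines. In U937 neither change was called, and in HL-60 the shSYK_2 fall was not called without replicate 1 of that group, the array of conflicting labels.

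Of the other pump genes, ATP6V0C, the main proteolipid of the ring, changed, in the order MOLM-14, U937, HL-60, by 0.52, 0.47 and 0.45 with shSYK_1 and 0.042, 0.098 and 0.25 with shSYK_2, with all 3 shSYK_1 changes called. Its shSYK_2 average was lost without MOLM-14 shSYK_2 replicate 1 or U937 shSYK_2 replicate 2. ATP6V1D of the central stalk changed by 0.49, 0.79 and 0.57 with shSYK_1 and -0.029, 0.45 and -0.075 with shSYK_2, called in all lines with shSYK_1 and in U937 with shSYK_2. ATP6AP1, an assembly and accessory protein, changed by 0.58, 0.35 and 0.44 with shSYK_1 and 0.28, 0.13 and 0.25 with shSYK_2. In these 3 genes the shSYK_1 change was the larger in every line. ATP6V1C1 and ATP6V1H rose most in U937 with shSYK_1, by 0.71 and 0.79. ATP6V1C1 fell by 0.41 in HL-60 with shSYK_2, and its average fall with shSYK_2, 0.18, was lost without any of 11 single arrays, and was -0.11 (limma adjusted p = 0.125) without HL-60 shSYK_2 replicate 1. ATP6V0E1, ATP6V1B2, ATP6V1E1 and ATP6AP2 rose on average with either hairpin, by 0.25 to 0.32 with shSYK_1 and 0.15 to 0.23 with shSYK_2.

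Among the 6 membrane proteins, 4 rose for both hairpins averaged over lines (NPC1, CD63, CLN3 and MCOLN1), where 17.1% of all genes rose. The abundant glycoproteins LAMP1 and LAMP2 were not called, at -0.025 and -0.00011.

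NPC1 exports cholesterol from the lysosome. In MOLM-14, NPC1 had log2 intensities of 6.88, 6.83 and 6.88 with shLuc, 7.16 and 7.10 with shSYK_1 and 7.27 and 7.30 with shSYK_2. U937 arrays gave NPC1 log2 intensities of 8.03, 7.73 and 7.89, then 8.43 and 8.25, then 8.48 and 8.67, in the same order of hairpins. In HL-60, NPC1 read 8.0, 7.90 and 7.87 with shLuc, 8.30 and 8.36 with shSYK_1 and 8.16 and 8.38 with shSYK_2, again as log2 intensity. For NPC1, the shSYK_1 arrays lay above every shLuc array in all 3 lines, and the shSYK_2 arrays lay above every shLuc array in all 3 lines. NPC1 rose by 0.38 ± 0.0534 (SE, limma adjusted p = 2.57e-05) with shSYK_1 and 0.49 ± 0.0534 (SE, limma adjusted p = 2.89e-06) with shSYK_2 and was called in all 6 groups. In MOLM-14 the shSYK_1 call did not survive the removal of any of 12 arrays, each left out alone. With the mean of its probe sets, of which the second had a mean log2 intensity of 2.58 and was not called, the calls were lost in every group but U937 with shSYK_1. The shSYK_2 calls in MOLM-14 and HL-60 were also lost without replicate 2 of each, and the U937 call with shSYK_1 without replicate 1.

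CD63 is a tetraspanin of late endosomes and of azurophil granules. In MOLM-14, CD63 had log2 intensities of 9.89, 9.77 and 9.73 with shLuc, 10.56 and 10.64 with shSYK_1 and 10.05 and 10.11 with shSYK_2. U937 arrays gave CD63 log2 intensities of 10.65, 10.75 and 10.76, then 11.32 and 11.43, then 10.98 and 10.96, in the same order of hairpins. In HL-60, CD63 read 10.67, 10.64 and 10.66 with shLuc, 11.08 and 11.06 with shSYK_1 and 10.94 and 10.75 with shSYK_2, again as log2 intensity. For CD63, the shSYK_1 arrays lay above every shLuc array in all 3 lines, and the shSYK_2 arrays lay above every shLuc array in all 3 lines. CD63 rose by 0.63 ± 0.0411 (SE, limma adjusted p = 3.59e-09) with shSYK_1 and 0.24 ± 0.0411 (SE, limma adjusted p = 2.73e-04) with shSYK_2. In HL-60 the shSYK_2 change was 0.19 and was not called. The shSYK_2 call in MOLM-14 was lost without replicate 2 of that group, and that in U937 without either of its arrays or without U937 shLuc replicate 1.

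CLN3 is the membrane protein lost in juvenile Batten disease. In MOLM-14, CLN3 had log2 intensities of 6.85, 6.91 and 6.95 with shLuc, 7.36 and 7.38 with shSYK_1 and 6.82 and 6.85 with shSYK_2. U937 arrays gave CLN3 log2 intensities of 6.88, 6.96 and 6.92, then 7.41 and 7.31, then 7.25 and 7.35, in the same order of hairpins. In HL-60, CLN3 read 7.93, 7.86 and 7.90 with shLuc, 8.12 and 8.24 with shSYK_1 and 8.42 and 8.29 with shSYK_2, again as log2 intensity. For CLN3, the shSYK_1 arrays lay above every shLuc array in all 3 lines, and the shSYK_2 arrays lay above every shLuc array in U937 and HL-60 and below every shLuc array in MOLM-14. CLN3 rose by 0.40 ± 0.0380 (SE, limma adjusted p = 3.30e-07) with shSYK_1 and 0.26 ± 0.0380 (SE, limma adjusted p = 6.42e-05) with shSYK_2. With shSYK_2 it was called in U937 and HL-60 and not in MOLM-14, at -0.066. Its shSYK_1 call in HL-60 was lost without replicate 2 of that group.

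MCOLN1, a calcium channel of the lysosomal membrane, changed, in the order MOLM-14, U937, HL-60, by 0.41, 0.53 and 0.62 with shSYK_1 and -0.072, -0.14 and 0.20 with shSYK_2, called in every line with shSYK_1 and in none with shSYK_2. LAMP1 was called in no line with either hairpin, and its 6 changes lay between -0.16 and 0.062. For LAMP2 the probe sets disagreed. The brightest gave -0.00011 for both hairpins averaged over lines, and the 2 dimmer ones gave 0.24 (limma adjusted p = 4.94e-05) and 0.27 (limma adjusted p = 1.09e-04), adjusted over the 19724 probe sets with 1 gene symbol. With the mean of the 3, LAMP2 rose by 0.17 (limma adjusted p = 4.71e-04).

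Both regulators rose on average. TFEB is a transcription factor that drives lysosomal genes when it is in the nucleus, and WIPI1 binds the lipid that marks forming autophagosomes.

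TFEB moved most in HL-60, the line with the lowest control level. In MOLM-14, TFEB had log2 intensities of 6.87, 6.70 and 6.75 with shLuc, 6.95 and 6.93 with shSYK_1 and 6.62 and 6.68 with shSYK_2. U937 arrays gave TFEB log2 intensities of 6.25, 6.25 and 6.34, then 6.57 and 6.51, then 6.56 and 6.62, in the same order of hairpins. In HL-60, TFEB read 4.56, 4.70 and 4.34 with shLuc, 5.61 and 5.51 with shSYK_1 and 4.97 and 5.31 with shSYK_2, again as log2 intensity. For TFEB, the shSYK_1 arrays lay above every shLuc array in all 3 lines, and the shSYK_2 arrays lay above every shLuc array in U937 and HL-60 and below every shLuc array in MOLM-14. TFEB changed, in the order MOLM-14, U937, HL-60, by 0.17, 0.26 and 1.02 with shSYK_1 and -0.12, 0.31 and 0.60 with shSYK_2, and only the HL-60 changes were called. The averages were 0.48 ± 0.0593 (SE, limma adjusted p = 5.28e-06) with shSYK_1 and 0.26 ± 0.0593 (SE, limma adjusted p = 0.00258) with shSYK_2.

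WIPI1 had larger changes. In MOLM-14, WIPI1 had log2 intensities of 4.30, 4.26 and 4.56 with shLuc, 5.40 and 5.27 with shSYK_1 and 4.25 and 4.06 with shSYK_2. U937 arrays gave WIPI1 log2 intensities of 6.68, 6.70 and 6.82, then 7.44 and 7.42, then 6.96 and 7.09, in the same order of hairpins. In HL-60, WIPI1 read 4.28, 4.62 and 4.63 with shLuc, 5.81 and 5.42 with shSYK_1 and 5.45 and 5.40 with shSYK_2, again as log2 intensity. For WIPI1, the shSYK_1 arrays lay above every shLuc array in all 3 lines, and the shSYK_2 arrays lay above every shLuc array in U937 and HL-60 and below every shLuc array in MOLM-14. WIPI1 rose by 0.92 ± 0.0724 (SE, limma adjusted p = 3.10e-08) with shSYK_1 and 0.33 ± 0.0724 (SE, limma adjusted p = 0.00212) with shSYK_2. With the mean of both its probe sets the shSYK_2 average was not called.

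**Figure D2:**
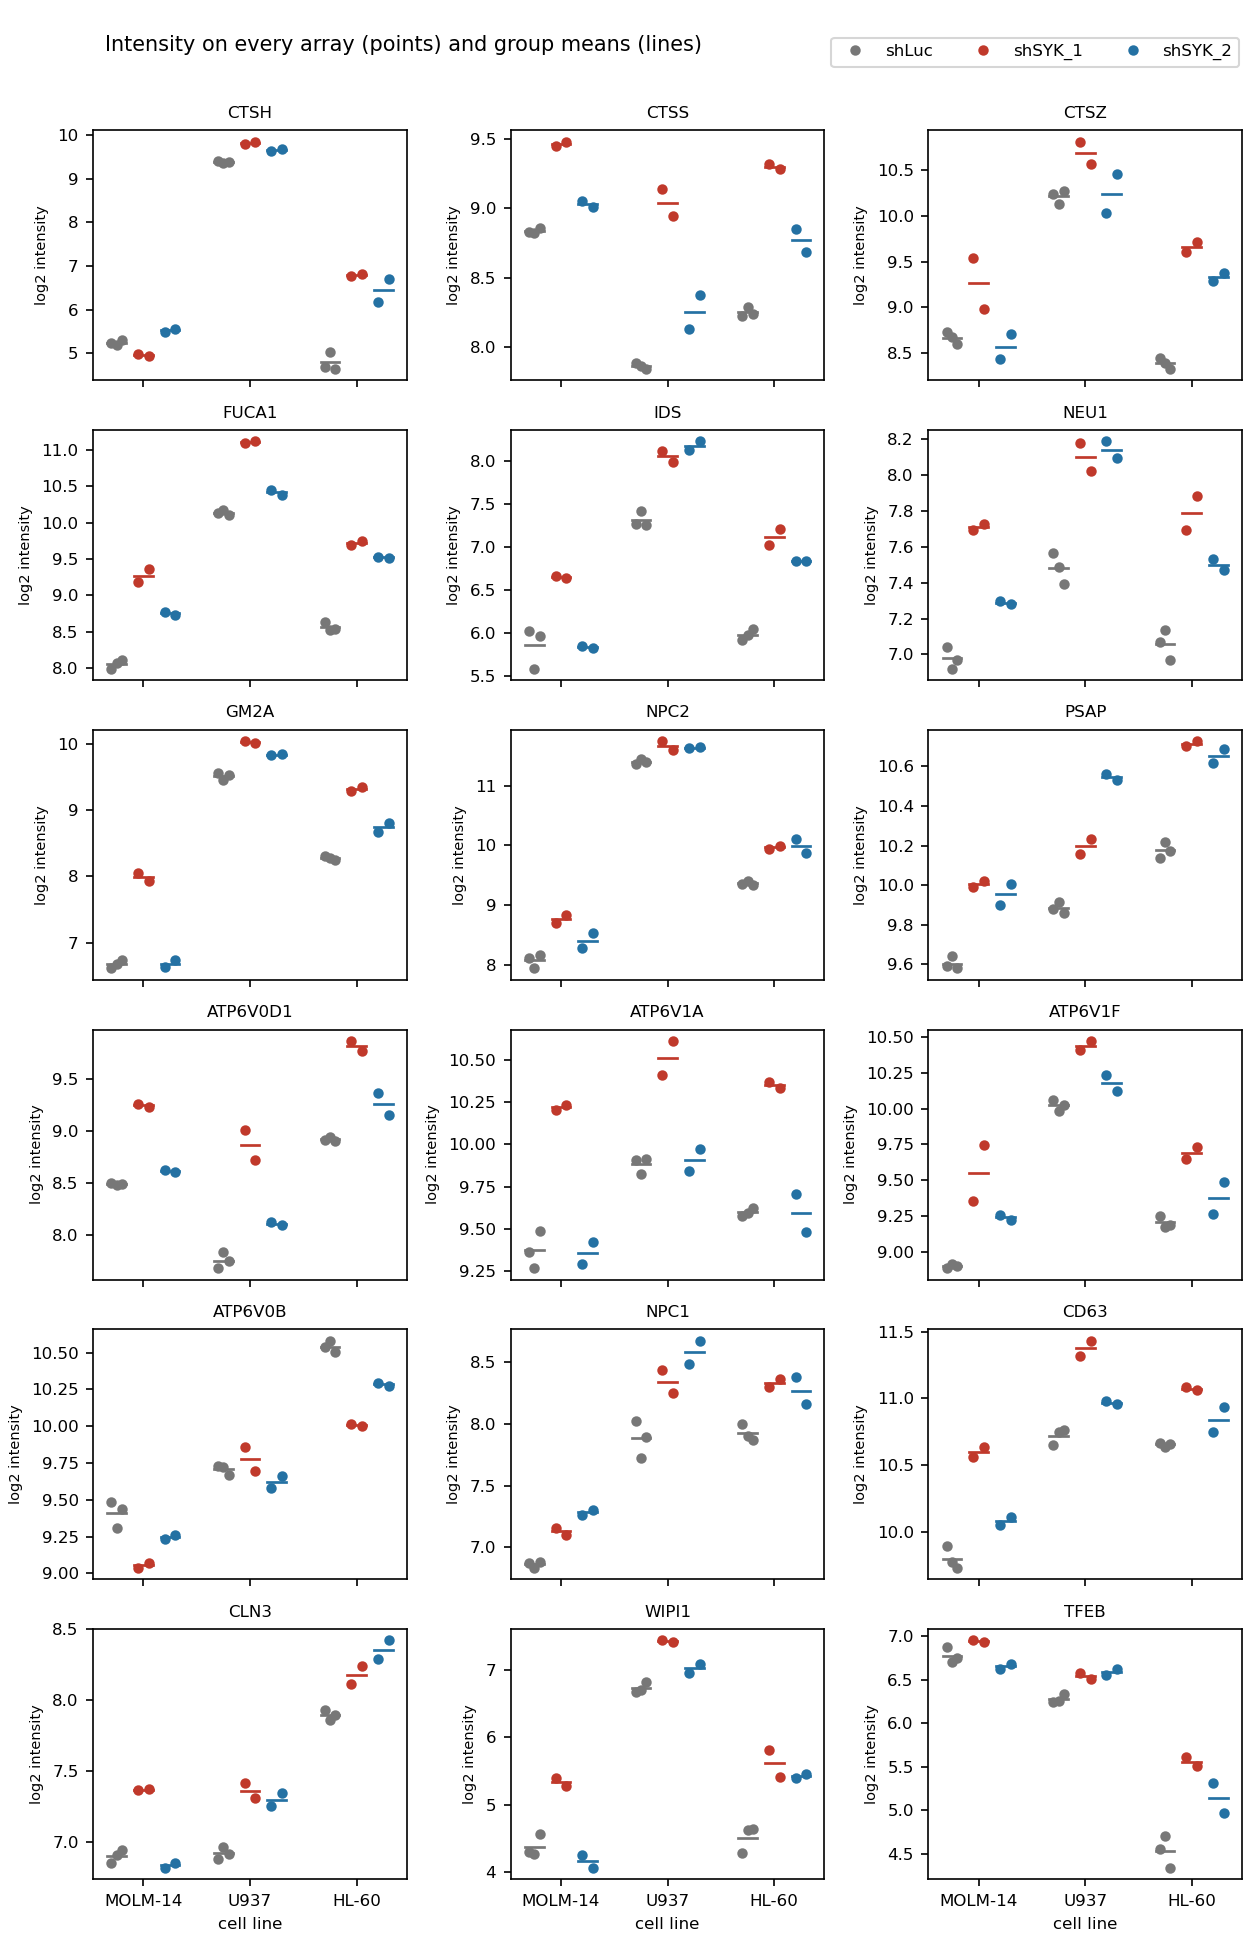
Log2 intensity (vertical axis, its own scale in each panel) of the 18 members with the largest average change of their class, on every array (points) with group means (lines), by cell line and hairpin. CTSH rises in HL-60 alone by more than 1 log2 unit, ATP6V1A is raised by shSYK_1 and not by shSYK_2 in every line, and ATP6V0B lies lower with either hairpin in MOLM-14 and HL-60.

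The hairpin groups of a line were also compared with each other, a contrast to which the shLuc arrays add only through the shared estimate of spread. Averaged over lines, 28 members were lower and 3 higher with shSYK_2 than with shSYK_1 (18.4% and 17.3% of all genes), and the median difference was -0.16 against 0.017 for all genes. In MOLM-14 27 were lower and 3 higher (12.8% and 13.2% of all genes). In U937 15 were lower and 7 higher (11.1% and 11.9%). In HL-60 18 were lower and 5 higher (12.6% and 9.59%), and 0 and 0 with the array of conflicting labels moved to shSYK_1. The higher count in HL-60 was 1 without either shSYK_1 array of that line. SYK itself was lower with shSYK_2 than with shSYK_1, by 0.45 ± 0.0516 (SE, limma adjusted p = 2.94e-06) averaged over lines. Averaged over lines, the hairpin that left less SYK RNA thus had the smaller median change of the members. In HL-60 alone the SYK difference, -0.24, was not called (limma adjusted p = 0.0716). A link between SYK level and member change was not tested.

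Of the 28 members lower with shSYK_2, 9 were V-ATPase genes, 6 glycosidases or sulfatases, 5 proteases and 4 membrane proteins. After ATP6V1A the largest were CTSA, with a difference of -0.70 ± 0.0365 (SE, limma adjusted p = 3.32e-10), GM2A, with -0.69 ± 0.0418 (limma adjusted p = 1.94e-09), and ATP6V0D1, with -0.65 ± 0.0515 (limma adjusted p = 4.59e-08). The 3 that were higher with shSYK_2 were IDUA, with 0.51 ± 0.0688 (limma adjusted p = 1.52e-05), TPP1, with 0.45 ± 0.0504 (limma adjusted p = 2.04e-06), and HEXA, with 0.19 ± 0.0387 (limma adjusted p = 7.10e-04). The last 2 depended on the probe set: a dimmer TPP1 set differed by -0.39 and a second HEXA set by -0.32. A second IDUA set differed by 0.16 and was not called. The IDUA set used here had a mean log2 intensity of 4.43, below the 5.12 of the median gene. With the mean of all probe sets TPP1 differed by 0.090 (limma adjusted p = 0.0587) and HEXA by -0.061 (limma adjusted p = 0.496). PSAP, LIPA, MANBA, GLB1 and NPC1 rose with both hairpins and their differences, 0.080, 0.078, -0.023, -0.037 and 0.11, were not called. The 95% confidence interval of the PSAP difference was 0.0021 to 0.16 and that of NPC1 -0.014 to 0.23.

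**Figure D3:**
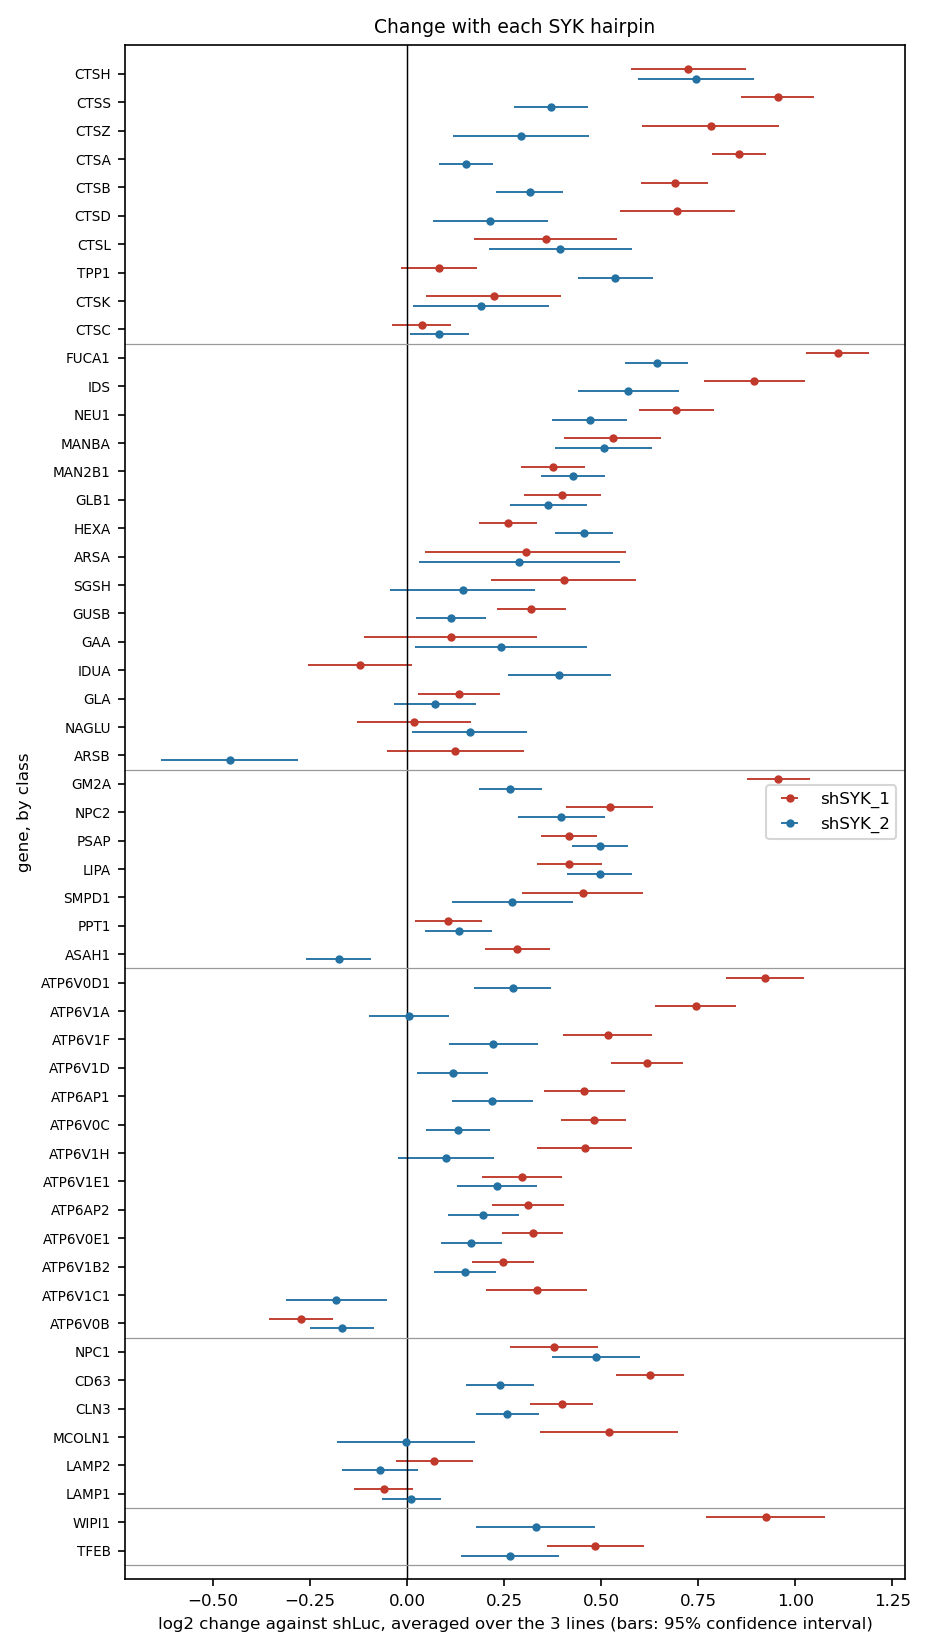
Log2 change against shLuc with shSYK_1 (red) and shSYK_2 (blue), averaged over the 3 lines, for each member by class; bars are 95% confidence intervals. V-ATPase genes other than ATP6V0B lie further to the right with shSYK_1, PSAP, LIPA, MANBA and NPC1 have overlapping intervals, and TPP1, HEXA and IDUA lie further right with shSYK_2.

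The response to SYK hairpins differed between lines for some members. For both hairpins together, 8 members had a lower change in MOLM-14 than in the mean of U937 and HL-60, and 0 a higher one (3.21% and 2.9% of all genes). Of these, 5 were cathepsins: CTSH, with a difference of -1.09, CTSD (-0.55), CTSB (-0.53), CTSS (-0.38) and CTSC (-0.23). The others were IDS, TFEB and ATP6V1B2. The contrast pools both hairpins and sets MOLM-14 against a mean of unequal lines. In the order MOLM-14, U937 and HL-60, IDS changed by 0.80, 0.75 and 1.14 with shSYK_1 and -0.023, 0.87 and 0.86 with shSYK_2. CTSH changed by 0.0048, 0.37 and 1.83 for both hairpins. With the array of conflicting labels moved, the count was 3, and without MOLM-14 shLuc replicate 2 it was 5. Between U937 and HL-60, 9 members had a negative difference of changes (U937 minus HL-60) and 5 a positive one (4.06% and 2.82% of all genes). The 5 with a positive difference were all V-ATPase genes: ATP6V1C1, with 0.50, ATP6V1H, with 0.43, ATP6V0B, with 0.39, ATP6V1D, with 0.38, and ATP6V0E1, with 0.37. ATP6V0B fell by 0.39 in HL-60 and changed by -0.0075 in U937, which was not called. With the array of conflicting labels moved to shSYK_1, the counts were 0 positive and 4 negative. The count of positive differences was 3 without any of U937 shLuc replicate 3, HL-60 shLuc replicates 1 and 2 and HL-60 shSYK_1 replicate 2, each left out alone.

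The lines started from different levels. With shLuc, 35 members were lower in MOLM-14 than in U937 and 11 higher (26.4% and 25.7% of all genes), and 28 were lower in MOLM-14 than in HL-60 and 10 higher (26.4% and 23%). U937 exceeded HL-60 for 29 members and fell short for 16 (25.8% and 27% of all genes). Centring each array on its median moved the median of all genes by -0.21 for MOLM-14 against HL-60 and -0.25 for U937 against HL-60, and the split of members became 39 lower and 6 higher, and 26 higher and 20 lower. Against both other lines, U937 was highest for 27 members, HL-60 for 8 and MOLM-14 for 5, and MOLM-14 was lowest for 23.

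All 11 glycosidases were higher in U937 than in MOLM-14, by 0.51 to 2.70. The largest gap of any member was that of CTSH, with mean log2 intensities (± SD, n = 3) of 5.24 ± 0.0487 in MOLM-14, 9.39 ± 0.0249 in U937, 4.79 ± 0.215 in HL-60. GM2A read 6.67 ± 0.0622 in MOLM-14, 9.51 ± 0.0547 in U937, 8.28 ± 0.0263 in HL-60, and CTSD 4.74 ± 0.0895 in MOLM-14, 8.18 ± 0.0809 in U937, 7.02 ± 0.0467 in HL-60. In each of these U937 was highest. All 4 V0 subunits were highest in HL-60, as in ATP6V0B, with 9.41 ± 0.0922 in MOLM-14, 9.71 ± 0.0349 in U937, 10.54 ± 0.0385 in HL-60. MOLM-14 was highest for CTSS, LIPA, ATP6V1H, MCOLN1 and TFEB, and TFEB read 6.77 ± 0.0879 in MOLM-14, 6.28 ± 0.0510 in U937, 4.54 ± 0.183 in HL-60.

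**Figure D4:**
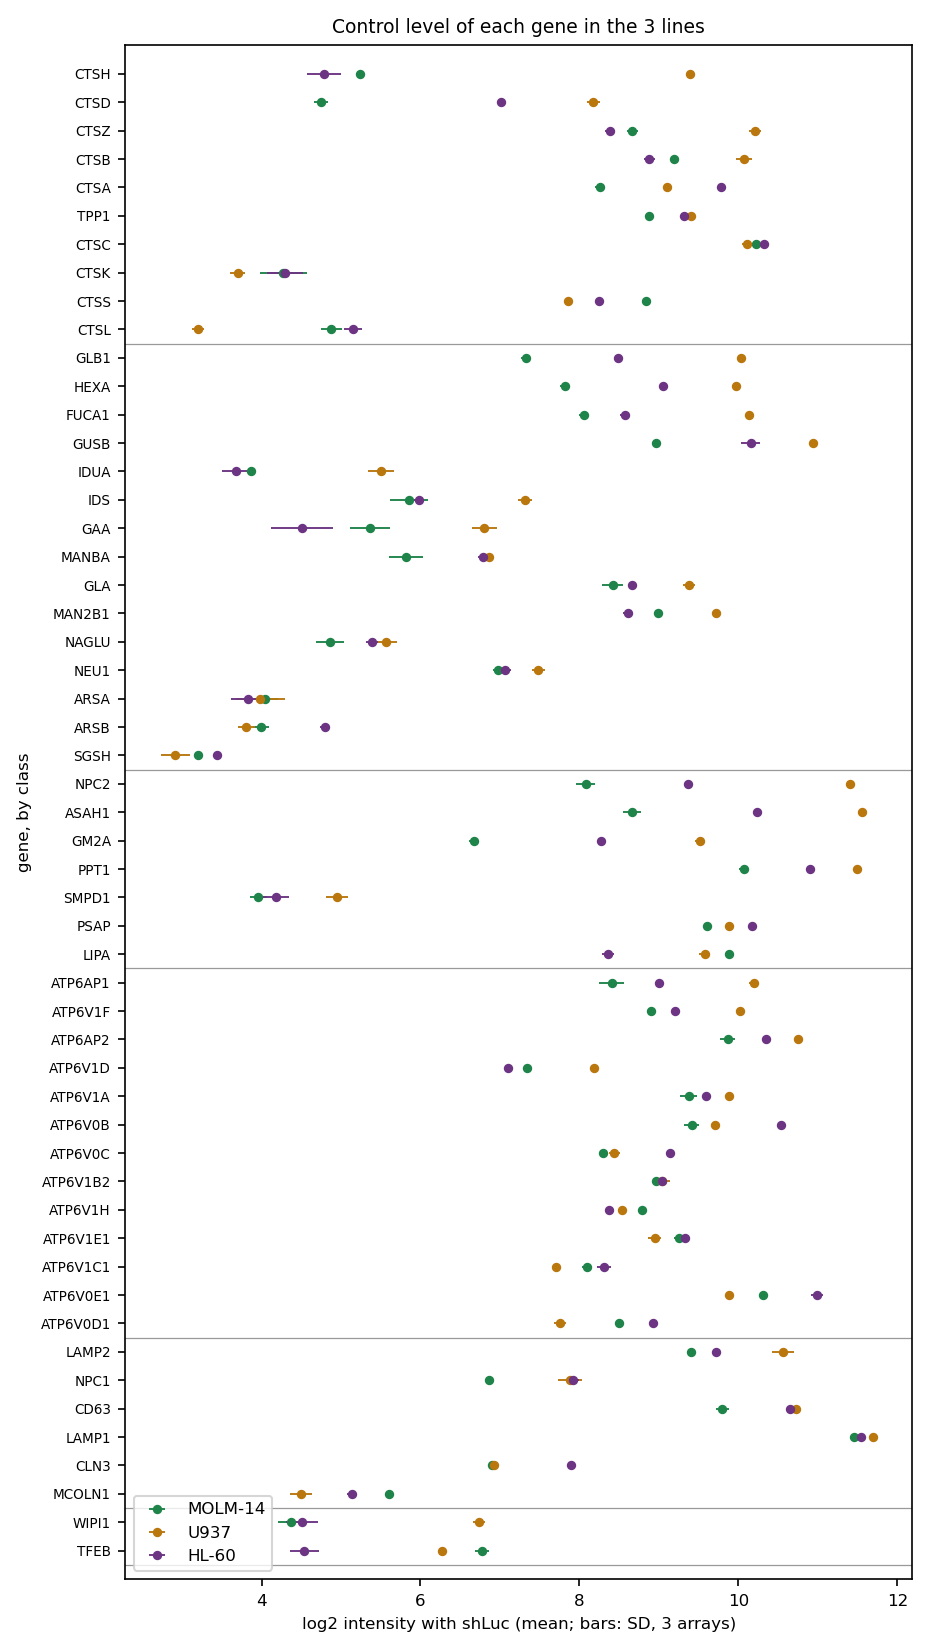
Mean log2 intensity of each member with shLuc in MOLM-14 (green), U937 (orange) and HL-60 (purple), 3 arrays each, with SD bars, ordered within class by U937 minus MOLM-14; levels of different genes are not comparable with each other. U937 lies furthest right for most glycosidases and lipid genes, and HL-60 for the V0 subunits ATP6V0B, ATP6V0C, ATP6V0D1 and ATP6V0E1.

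There were 55 further probe sets for 25 members. For both hairpins averaged over lines, 25 were called in the direction of the brightest set, 0 against a called brightest set, and 27 were not called. The other 3 were called where the brightest set was not, and belonged to ASAH1 and LAMP2.

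Genes outside the module that serve the same organelle were counted in the same way. Changes below are for both hairpins averaged over lines, where 17.1% of all genes rose and 17% fell, and counts with each hairpin alone follow (with shSYK_1 18.2% of all genes rose and 17.4% fell, and with shSYK_2 15.6% and 14.7%). Of other hydrolases, 10 of 19 rose and 2 fell; with shSYK_1 9 rose and 2 fell, and with shSYK_2 7 rose and 2 fell. DNASE2, the lysosomal DNase, rose by 0.89 ± 0.0889 (SE, limma adjusted p = 7.67e-07), and the cysteine protease CTSO by 0.71 ± 0.0771 (SE, limma adjusted p = 1.86e-06). PCYOX1, which breaks down prenylcysteine, fell by 0.33 and CTBS, which trims chitobiose, by 0.29. Of other V-ATPase subunits, 3 of 7 rose and 1 fell; with shSYK_1 3 rose and 1 fell, and with shSYK_2 0 rose and 1 fell. TCIRG1, the a3 subunit of V0, changed by 0.50 with shSYK_1 and -0.080 with shSYK_2, and ATP6V0A1 by 0.39 and 0.089. ATP6V0A2 fell by 0.35. Of other lysosomal membrane proteins, 10 of 17 rose and 3 fell; with shSYK_1 8 rose and 4 fell, and with shSYK_2 7 rose and 1 fell. The sialic acid exporter SLC17A5 rose by 0.64 ± 0.0363 (SE, limma adjusted p = 1.03e-09) and SCARB2, the receptor that carries glucocerebrosidase, by 0.63 ± 0.0599 (SE, limma adjusted p = 4.45e-07). The nucleoside transporter SLC29A3 fell by 0.34 and LAPTM4B by 0.31.

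Of genes that tag hydrolases with mannose 6-phosphate and sort them, 5 of 8 rose and 2 fell; with shSYK_1 5 rose and 2 fell, and with shSYK_2 2 rose and 2 fell. The receptor IGF2R rose by 0.27 ± 0.0398 (SE, limma adjusted p = 4.05e-05) and the adaptor GGA1 by 0.22 ± 0.0431 (SE, limma adjusted p = 6.13e-04). GGA2 fell by 0.45 for both hairpins, with -0.94 for shSYK_1 and 0.046 for shSYK_2, and NAGPA, the uncovering enzyme, fell by 0.19. Of the transcription factors and mTORC1 genes, 9 of 16 rose and 1 fell; with shSYK_1 11 rose and 2 fell, and with shSYK_2 3 rose and 3 fell. RRAGD, a GTPase that recruits mTORC1 to lysosomes, changed by 0.77 with shSYK_1 and 0.086 with shSYK_2. TFE3 rose by 0.42 ± 0.0638 (SE, limma adjusted p = 6.23e-05), and TSC1, a brake on mTORC1, fell by 0.30. TFEC, named here after its values were seen, changed by 0.88 (limma adjusted p = 3.35e-09) with shSYK_1 and -0.15 (limma adjusted p = 0.0575) with shSYK_2. Of autophagy genes, 7 of 19 rose and 4 fell; with shSYK_1 10 rose and 2 fell, and with shSYK_2 4 rose and 3 fell. GABARAP rose by 0.36 ± 0.0340 (SE, limma adjusted p = 3.78e-07) and ATG7 by 0.36 ± 0.0476 (SE, limma adjusted p = 1.78e-05), while UVRAG fell by 0.27 and ATG13 by 0.16. Of the inhibitors of cathepsins, 4 of 8 rose and 1 fell; with shSYK_1 4 rose and 1 fell, and with shSYK_2 3 rose and 0 fell. CSTB rose by 0.51 ± 0.0269 (SE, limma adjusted p = 5.51e-10) and CSTA by 0.37 ± 0.0339 (SE, limma adjusted p = 3.38e-07), and CST7, which acts in cytotoxic granules, fell by 0.25.

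Promoters were examined because many lysosomal genes are known to carry an E-box-centred motif. The members were chosen as lysosomal genes, so the shares below describe this list and are not a test of it. A RefSeq window from 250 bases before to 50 bases after the gene start (build GRCh38.p14) was at hand for 37 members, 9 of them with more than 1 window. The core CACGTG, which reads the same on both strands, lay in the windows of 11 of 37 members (29.7%), against 11.9% of the 9711 tested genes and 8.77% of all 27305 genes with a window. The longer palindrome TCACGTGA, which contains the core, was found in 6 of 37 members (16.2%), against 1.98% of the 9711 tested genes and 1.18% of all 27305 genes with a window. The 10-base form, in which that palindrome has G before it and C after it, was found in 2 of 37 members (5.41%), against 0.783% of the 9711 tested genes and 0.421% of all 27305 genes with a window, GAA and MCOLN1. A match describes the letters and shows no binding.

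The changes of members with and without the core are given side by side. The 11 with CACGTG had a median change of 0.52 with shSYK_1 and 0.21 with shSYK_2, and the 26 members with a window and no core had 0.43 and 0.28. For both hairpins averaged over lines, 7 of 11 with the core rose and 1 fell, and 23 of 26 without it rose. Stretches from 7 of these promoters are printed 5′ to 3′ on the strand of the gene, with CACGTG in capitals, because they hold the core and cover rises, a fall and changes that were not called. They span members that rose with shSYK_1 (ATP6V0D1, CTSA, NEU1 and MCOLN1), the member that fell (ATP6V0B) and members that were called for neither hairpin averaged over lines (GAA and LAMP1).
ATP6V0D1: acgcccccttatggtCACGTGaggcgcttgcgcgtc
CTSA: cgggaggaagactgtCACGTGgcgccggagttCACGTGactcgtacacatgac
NEU1: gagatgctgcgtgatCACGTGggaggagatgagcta
MCOLN1: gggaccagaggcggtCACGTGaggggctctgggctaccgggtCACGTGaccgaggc
ATP6V0B: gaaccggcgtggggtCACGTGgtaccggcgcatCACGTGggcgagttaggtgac
GAA: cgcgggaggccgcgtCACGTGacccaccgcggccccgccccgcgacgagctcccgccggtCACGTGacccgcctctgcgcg
LAMP1: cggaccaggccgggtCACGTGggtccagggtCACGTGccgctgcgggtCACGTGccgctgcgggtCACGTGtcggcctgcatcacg
In GRCh38.p14 these lie at chr16:67481196-67481231, minus strand (ATP6V0D1), chr20:45891278-45891330, plus strand (CTSA), chr6:31862927-31862962, minus strand (NEU1), chr19:7522568-7522623, plus strand (MCOLN1), chr1:43974888-43974941, plus strand (ATP6V0B), chr17:80101490-80101570, plus strand (GAA) and chr13:113297032-113297117, plus strand (LAMP1), all upstream of the annotated start of the gene. LAMP1 held 4 cores in this stretch and 2 more nearer the start, and its average changes were -0.061 with shSYK_1 and 0.011 with shSYK_2. GAA held the 10-base form at 2 places and changed by 0.11 and 0.24, neither called. ATP6V0D1, with 1 match to the longer palindrome, changed by 0.92 and 0.27.

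**Figure D5:**
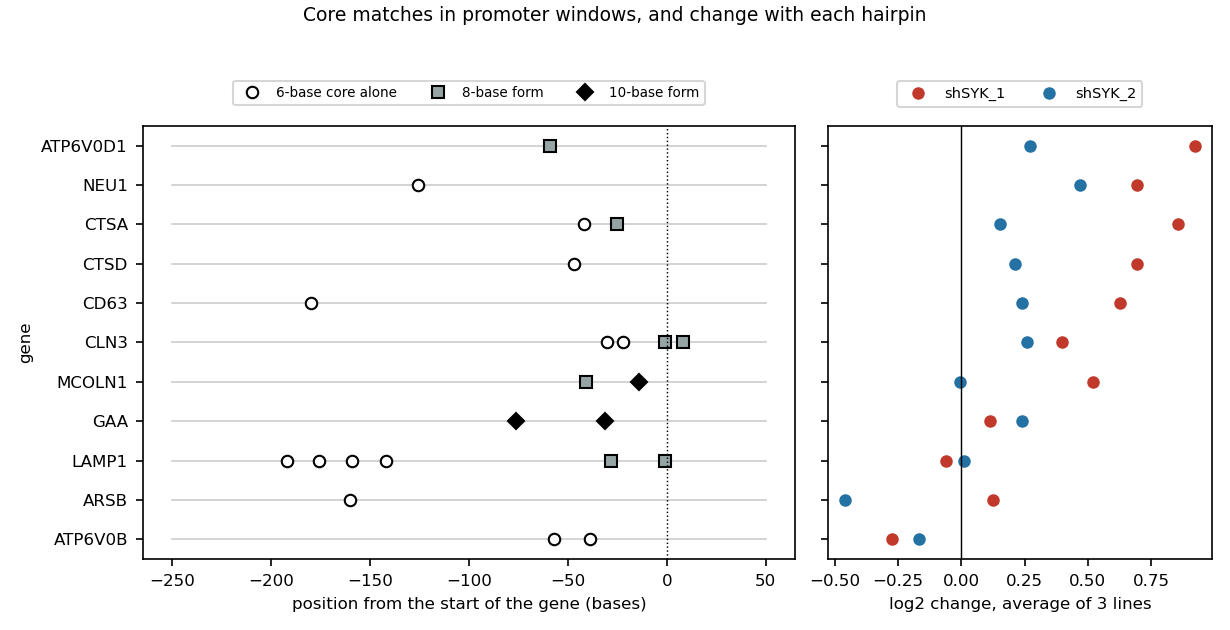
Left, positions of CACGTG in the promoter windows of the 11 members that hold it, in bases from the start of the gene, with open circles for the core alone, grey squares for the 8-base palindrome and black diamonds for the 10-base form; right, the average log2 change with shSYK_1 (red) and shSYK_2 (blue). CLN3 is drawn from both of its windows, so each of its sites appears at a pair of positions. LAMP1 holds the most matches and lies near 0, and ATP6V0B, with 2, lies below 0 with both hairpins.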

How the data were processed

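The 21 arrays (Affymetrix high-throughput human arrays) were used as the authors deposited them, as linear intensity values made with RMA, per the submitters' processing notes; the sources used here give no other steps. Log2 was taken here with no pseudocount. Of 22277 probe sets, 62 were controls and 19724 carried 1 gene symbol, giving 12165 genes by the brightest probe set. All 9 groups were fitted together with limma 3.58.1 in R 4.3.3 (lmFit and eBayes, 12 residual degrees of freedom), and p-values were adjusted by Benjamini-Hochberg over all 12165 genes. Per the labels' protocols, replicates are repeat transductions, and p-values measure the spread between them. The number of arrays limits the precision. Members and gene lists were chosen with earlier results of these data known.

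Values of every array are given for up to 3 called members of each class in each direction with the largest change for both hairpins averaged over lines, and mean changes for up to 2 such genes of each related list in each direction. Alternatives were 11 other settings (scaling, an added 16 before log2, the mean of all probe sets, the dimmest 40% of genes left out, the prior, array weights, 1 line at a time, the replicate block, the conflicting label) and 21 fits each without 1 array. Same-numbered samples of a line did not deviate together: over 18 pairs the correlation of deviations was -0.21 to 0.092, and the numbers were not used as pairs. In a group of 2 arrays the deviations mirror each other, so these pairs are not independent. Pairs between the SYK hairpins gave the same value for both replicates of a line.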

Additional observations from a re-analysis of the deposited data

Results flagged for a closer look

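The change for both hairpins differed between lines for these members (limma contrasts of the lines, adjusted over all 12165 genes). MOLM-14 minus the mean of U937 and HL-60 was -1.09 for CTSH, -0.55 for CTSD, -0.53 for CTSB, -0.38 for CTSS and -0.23 for CTSC. It was -0.53 for TFEB, -0.52 for IDS and -0.24 for ATP6V1B2.

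U937 minus HL-60 was -1.47 for CTSH, -1.21 for the dim SGSH, -0.86 for CTSZ and -0.41 for CTSB. Among the other hydrolases and cofactors it was -0.43 for FUCA1, -0.33 for GM2A and -0.27 for MAN2B1, and for the regulators -0.53 for TFEB and -0.51 for WIPI1. The V-ATPase genes called in this contrast had the opposite sign, with 0.50 for ATP6V1C1, 0.43 for ATP6V1H, 0.39 for ATP6V0B, 0.38 for ATP6V1D and 0.37 for ATP6V0E1. Groups of 2 or 3 arrays were not tested for single arrays that stand apart.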

How the results depend on the processing

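For both hairpins averaged over lines, 40 of 43 calls held under all alternatives, against 4 of 19 for MOLM-14 with shSYK_2 and 0 of 23 for the hairpin difference in HL-60. With the array of conflicting labels (HL-60 shSYK_2 replicate 1) moved to shSYK_1, 11 members rose in MOLM-14 with shSYK_2. In HL-60 with shSYK_2, 18 then rose and 0 fell, and 0 were higher and 0 lower with shSYK_2 than with shSYK_1. The lone array left was assumed to vary like the other groups. The counts of changes that differed between lines became 3 lower in MOLM-14, and 0 positive and 4 negative for U937 minus HL-60. With array weights, 19 rose and 1 fell in HL-60 with shSYK_2, and 1 were higher and 10 lower than with shSYK_1. With only HL-60 arrays fitted, 1 fell, and 0 were higher and 10 lower. Higher with shSYK_2 in HL-60 were 9 members after quantile normalisation and 8 after median centring, and median centring left 6 higher in MOLM-14 than in HL-60 controls. The mean of all probe sets gave 3 that fell in HL-60 with shSYK_2 and 2 higher in U937 than HL-60. The cause of these shifts was not tested.

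Leaving out each array gave 5 to 18 members that rose in MOLM-14 with shSYK_2, 1 to 7 that fell in HL-60 with shSYK_2, 1 to 5 higher with shSYK_2 than shSYK_1 in HL-60, 5 to 9 with a lower change in MOLM-14 and 3 to 6 with a positive U937 minus HL-60 difference. Signs turned with the mean of all probe sets for LAMP2, to 0.34 in MOLM-14 and 0.24 in U937 with shSYK_1, 0.23 in MOLM-14 with both and 0.17 on average. They turned for ATP6V0E1 in HL-60, to 0.18 with shSYK_2 and 0.013 between hairpins, for TPP1 between hairpins in MOLM-14, to -0.097, and for HEXA between hairpins, to -0.031 in U937 and -0.061 on average. Among controls TPP1 became 0.025 for MOLM-14 minus U937 and -0.54 for U937 minus HL-60. Median centring turned U937 minus HL-60 controls for TPP1 (-0.16), LAMP1 (-0.11) and CD63 (-0.19).

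The samples share only a replicate number. With the replicate block, 42 rose and 1 fell for both hairpins averaged over lines, 43 rose with shSYK_1 and 36 with shSYK_2.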
